A study of Mus musculus with 8 samples.

Results

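The genes described here encode the proteasome: its subunits, its regulatory particle, its activators and its assembly chaperones. They were taken as every row of the expression table whose symbol begins with Psm, a letter from a to g and a number, which gave 50 of 24453 genes. Of these, 48 have a known part in the proteasome, and 2 match by name only: Psmc3ip, a meiotic recombination factor, and Psme2b, a near-identical copy of the activator gene Psme2. Expression was read by RNA sequencing of 8 mouse samples sorted for CD4 and Foxp3, the transcription factor that defines regulatory T cells. Group T138 has 2 libraries, while T143 and WT have 3 each. The lines T138 and T143 are labelled as derived by nuclear transfer, where the nucleus of 1 T cell gives rise to a mouse, so that each line stands for a single founder clone. WT is labelled as wildtype in model and derivation. All 8 libraries, WT included, carry the strain label NOD-Foxp3GFP-Rag1-/-, and none was treated. The ages of the mice are not given in the sources used here.

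The proteasome is the protease that degrades ubiquitin-tagged proteins. Its barrel-shaped core is built of alpha and beta rings, and 3 of the beta subunits (Psmb6, Psmb7 and Psmb5) carry the constitutive active sites. Immune cells and cells exposed to interferon gamma replace them with the inducible subunits Psmb9, Psmb10 and Psmb8, in that order of position, which gives the immunoproteasome and alters which peptides are cut for display on MHC class I. A regulatory particle of ATPases and non-ATPases caps the core, recognises ubiquitin and unfolds the substrate. T cells express the immunoproteasome without stimulation.

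Values are normalised read counts, gene read counts scaled by the authors so that every library sums to 15.59 M. The libraries held 7.83 to 22.64 M reads, with the T143 libraries at 7.83 to 12.6 M, so that 3 reads were worth a value of 2.07 to 5.97. Source names disagree with the titles for 2 libraries, T143 replicate 1 (T138 mouse) and WT replicate 1 (T143 mouse), and the groups follow the titles. Foxp3 was 41854 and 41161 in T138, 3920, 6299 and 8694 in T143 and, for WT, 29773, 36362 and 35360. Cd3e, a subunit of the T cell receptor complex, ranged from 5213 to 12487 over all 8 libraries. The 14 myeloid markers made up 0.0409 and 0.168% of the summed signal in T138, 0.615 to 3.58% in T143 and at most 0.00615% in WT, where 2 to 5 of the 14 were at 0 (Ngp in 1 library, S100a8 and Camp in 2). The 12 dendritic and MHC class II markers made up 0.503 and 0.669% in T138, 0.0449 to 0.185% in T143 and at most 0.0111% in WT, where Clec9a was at 0 in each library. The B cell, CD8 T cell and thymus epithelium lists stayed at or below 0.00684% in every library, erythroid markers reached 0.0987% and natural killer markers 0.0126%, both in T143 replicate 2. The part of these other cell types in the differences below was not tested, and in bulk RNA fewer cells of a type and less RNA per cell cannot be told apart.

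Sequences just before the listed starts of catalytic subunit genes are shown first. Whether they have a part in the expression differences described below was not tested. RefSeq promoter windows (GRCm38.p6, 250 bases before to 50 after a listed start) were found for 42 of the 50 genes. Capitals mark a match to a short motif core, and each stretch is 30 bases read 5′ to 3′ on the gene's strand.
Psmb9, chr17:34187371-34187400, minus strand: ccttgcgcgaTGATGGGGCggggcctcagt
Psmb9, chr17:34187331-34187360, minus strand: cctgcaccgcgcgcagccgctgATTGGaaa
Psmb8, chr17:34198088-34198117, plus strand: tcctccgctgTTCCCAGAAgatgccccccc
Psmb6, chr11:70525327-70525356, plus strand: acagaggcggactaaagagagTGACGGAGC
Psmb5, chr14:54618023-54618052, minus strand: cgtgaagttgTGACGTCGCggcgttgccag

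In these stretches, Psmb9, Psmb6 and Psmb5 hold TGANNNNGC, a core shared by antioxidant response elements and sites of the proteasome regulator NRF1, starting 60, 9 and 47 bases before the start. Psmb9 also holds ATTGG, the reverse complement of CCAAT, 8 bases before its start. Psmb8 holds TTCNNNGAA, the core of the gamma-activated site, 97 bases before its start. Outside the printed stretches, TGANNNNGC also occurs in the Psmb8 window, 23 bases after the start, and again in that of Psmb5, 41 bases after it. The core was thus found for both inducible and constitutive genes. GENCODE M21 lists Psmb8 and Psmb9 transcripts that begin further upstream, so that exons of 1 Psmb8 transcript and of 1 and 4 Psmb9 transcripts reach into the printed stretches. The start listed for Psmb6 lies inside the span RefSeq gives for the gene, and so does its printed stretch. No core searched for was found in the Psmb10 window, and Psmb7 had no window.

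The shares over all promoters put these matches in proportion. Both strands were searched in 32851 windows of the same length. TGANNNNGC was in 41.3% of all windows and in those of 24 of the 42 genes, and CCAAT in 37.4% of windows and in those of 15 genes. GAAANNGAA, the core of the interferon-stimulated response element, was in 8.6% of windows and 7 of the 42 genes (Psmb3, Psmb4, Psmc2, Psmd4, Psmd9, Psme1 and Psmg4). TTCNNNGAA was in 8.3% of windows and in those of Psmb8, Psmd2 and Psmg1. GGANNTTCC, the core of kappaB sites, was in 4.3% of windows and 6 of the genes. TTCNNNGAA and GGANNTTCC can overlap where a run ends in TTCC and continues into GAA. A match is a string of letters and not a measured binding site.

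For most proteasome genes every T143 library lay above both T138 libraries, and the 3 inducible catalytic subunits were among the exceptions. Summed over all 50 genes, the proteasome took 0.376 and 0.368% of the signal in T138, 0.541, 0.48 and 0.463% in T143 and, for WT, 0.477, 0.319 and 0.44%. The T138 and T143 libraries did not overlap, while WT replicate 1 lay within the T143 range and WT replicate 2 was the lowest of all 8. The test took genes with values of 1 or more in 2 or more libraries, which 49 of the 50 were, and a gene was called at a Benjamini-Hochberg adjusted p under 0.05 in a limma fit over 15547 genes. For T143 against T138, 10 of 49 genes were called higher (20.4%) and 0 lower, against 21.0% of all tested genes called either way, 10.8% higher and 10.2% lower. The share called either way was thus near the background, and the direction was not: all 10 were higher. At an unadjusted p under 0.05, 27 were higher and 0 lower, and edgeR and DESeq2 on recovered reads called 7 and 17 higher and 0 lower. Groups did not overlap, with T143 higher, for 38 of 49 genes (77.6%) against 28.0% of all tested genes, and with T143 lower for 0 of 49 against 23.7%. The median log2 change was 0.53, against 0.15 over all tested genes, with 45 positive and 4 negative. Median centring gave 44 positive (median 0.44, against 0.06 over all genes) and quantile normalization 45 (0.47, against 0.01).

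Against WT, T143 differed in the same direction and by less. The limma fit called 5 of 49 genes higher (10.2%) and 0 lower, against 23.8% of all tested genes called either way, 11.7% higher and 12.1% lower. That share is below the background for calls either way and close to the background for higher calls. At an unadjusted p under 0.05, 16 were higher and 1 lower, and edgeR and DESeq2 called 4 and 10 higher and 0 lower. The libraries did not overlap, with T143 higher, for 23 of 49 genes (46.9%, against 20.0% of all tested genes), and with T143 lower for 1, the Psme2 copy Psme2b (2.04%, against 20.7%). The median log2 change was 0.31, against 0.05 over all genes, with 45 of 49 positive, and 36 after median centring (median 0.18, against -0.08) or 44 after quantile normalization. Both comparisons use the same 3 T143 libraries, so they are not independent of each other.

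T138 and WT differed least. A single gene, Psmd12, was called lower (2.04% of 49) and 0 higher, against 11.0% of all tested genes either way, 5.74% higher and 5.3% lower. At an unadjusted p under 0.05, 1 gene was higher and 6 lower, and edgeR and DESeq2 each called only Psmd12. Groups did not overlap for 2 genes with T138 higher (4.08%, against 17.7% of all genes) and for 9 with T138 lower (18.4%, against 19.8%). The median log2 change was -0.14, against -0.06 over all genes.

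The number of calls moved with single libraries. For T143 against T138 it ran from 1 without T138 replicate 2 to 21 without WT replicate 2, with 3, 4 and 6 without T143 replicates 1, 2 and 3 and 6 without T138 replicate 1. For T143 against WT it ran from 0 without T143 replicate 3 to 11 without WT replicate 1, with 1 without T143 replicate 2 or WT replicate 2 and 3 without T143 replicate 1 or WT replicate 3. The 3 without T143 replicate 1 were 2 higher and 1 lower, the lower one being Psme2b. Leaving out the 2 libraries whose source names disagree gave 2 and 1 calls, and leaving out the highest myeloid library of each line, T143 replicate 3 and T138 replicate 1, gave 4 and 0. With the myeloid or the dendritic marker level as a covariate, neither comparison had a call. Calls over all 15547 genes fell too. For T143 against T138 they went from 3272 to 908 (myeloid) and 110 (dendritic), and for T143 against WT from 3698 to 4 and 13. Neither marker level overlaps between the groups, so these fits cannot separate marker level from group, and no conclusion is drawn from them.

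**Figure D1:**
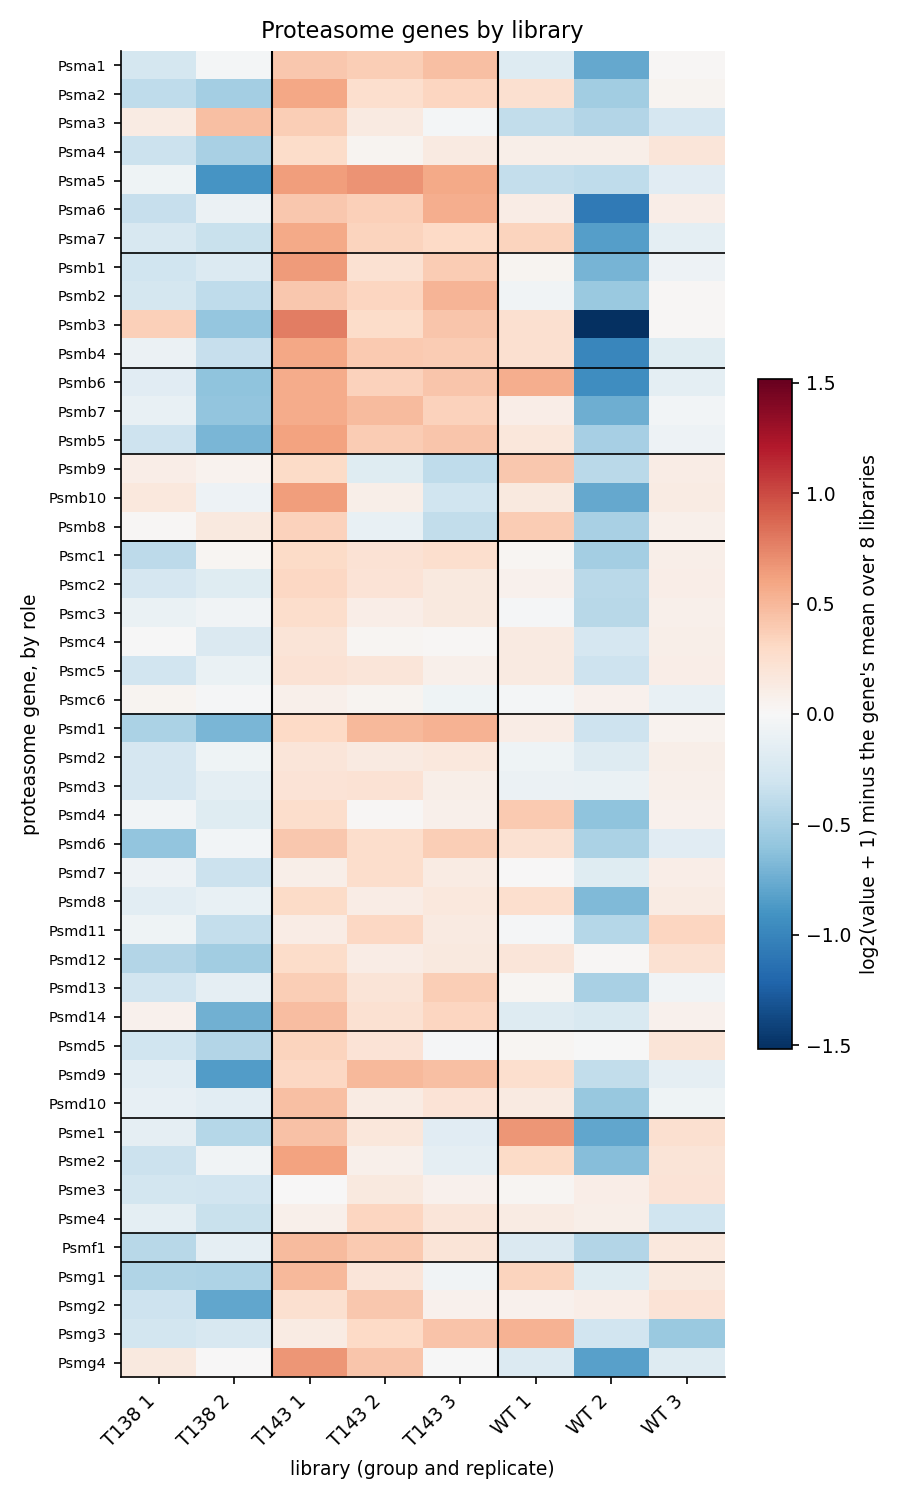
Level of the proteasome genes in each library, as log2(normalised read count + 1) minus the gene's mean over the 8 libraries (color scale), with genes in rows ordered by role and libraries in columns. Horizontal lines separate the roles, from alpha ring at the top to core assembly chaperones at the bottom. The T143 columns are mostly red and the T138 columns mostly blue, except in the rows of Psmb9, Psmb10 and Psmb8, and WT replicate 2 is low in most core subunits.

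The inducible catalytic subunits were abundant in every library and did not separate the groups. Psmb8 is the inducible subunit of the chymotrypsin-like site, and its gene lies on chromosome 17 (34198195 to 34201454) in the MHC region. It was 6325 and 6934 in T138, 7988, 5762 and 4814 in T143 and, for WT, 8182, 4424 and 6584. Psmb9, which replaces the caspase-like Psmb6, lies 225 bases from the peptide transporter gene Tap1 on the same chromosome (34182030 to 34187330). Its values were 2171 and 2093 in T138, 2460, 1783 and 1545 in T143 and, for WT, 2687, 1520 and 2183. Psmb10 replaces the trypsin-like Psmb7 and lies on chromosome 8 (105935728 to 105938392). It was 2004 and 1708 in T138, 2796, 1918 and 1458 in T143 and, for WT, 2002, 1046 and 1971. For all 3 genes the groups overlapped in every comparison, and the spread within T143 and within WT was larger than any difference between group means.

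None of the 3 was called in any comparison by limma, edgeR or DESeq2, and 0 of 3 had an unadjusted p under 0.05. For T143 against T138, Psmb9 changed by -0.17 ± 0.25 (SE, log2, 95% interval -0.72 to 0.38, adjusted p = 0.655), Psmb8 by -0.13 ± 0.26 (-0.71 to 0.45, adjusted p = 0.753) and Psmb10 by 0.10 ± 0.31 (-0.60 to 0.80, adjusted p = 0.838). For T143 against WT the changes were -0.13 ± 0.22, -0.03 ± 0.23 and 0.31 ± 0.28 in the same order. The intervals for T143 against T138 include changes of 0.38 to 0.80 upward, so a shared small rise was not detectable with these libraries.

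All 3 constitutive catalytic subunits had higher values in T143 than in T138 in every library, and Psmb7 passed the test. Psmb7, the trypsin-like subunit on chromosome 2 (38588046 to 38643952), was 818 and 587 in T138, 1307, 1241 and 1127 in T143 and, for WT, 948, 528 and 863. All 3 T143 libraries lay above the other 5. Its log2 change was 0.82 ± 0.25 against T138 (1.76-fold, adjusted p = 0.0437) and 0.69 ± 0.23 against WT (1.62-fold, adjusted p = 0.0491). These calls were held under 8 and 5 of 22 alternative settings, with positive changes throughout.

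Psmb6, the caspase-like subunit on chromosome 11 (70525324 to 70527858), was 1059 and 784 in T138, 1765, 1532 and 1602 in T143 and, for WT, 1753, 621 and 1076. T143 lay above T138 and overlapped WT through WT replicate 1. Its change was 0.84 ± 0.34 against T138 (adjusted p = 0.107) and 0.63 ± 0.31 against WT (adjusted p = 0.168), so neither was called. Psmb5, the chymotrypsin-like subunit on chromosome 14 (54614120 to 54617995), was 146 and 112 in T138, 279, 237 and 243 in T143 and, for WT, 205, 128 and 173. All 3 T143 libraries lay above the other 5, with changes of 0.98 ± 0.33 against T138 (adjusted p = 0.0564) and 0.60 ± 0.29 against WT (adjusted p = 0.164). Neither passed the threshold in the limma fit, and DESeq2 called Psmb5 against T138.

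**Figure D2:**
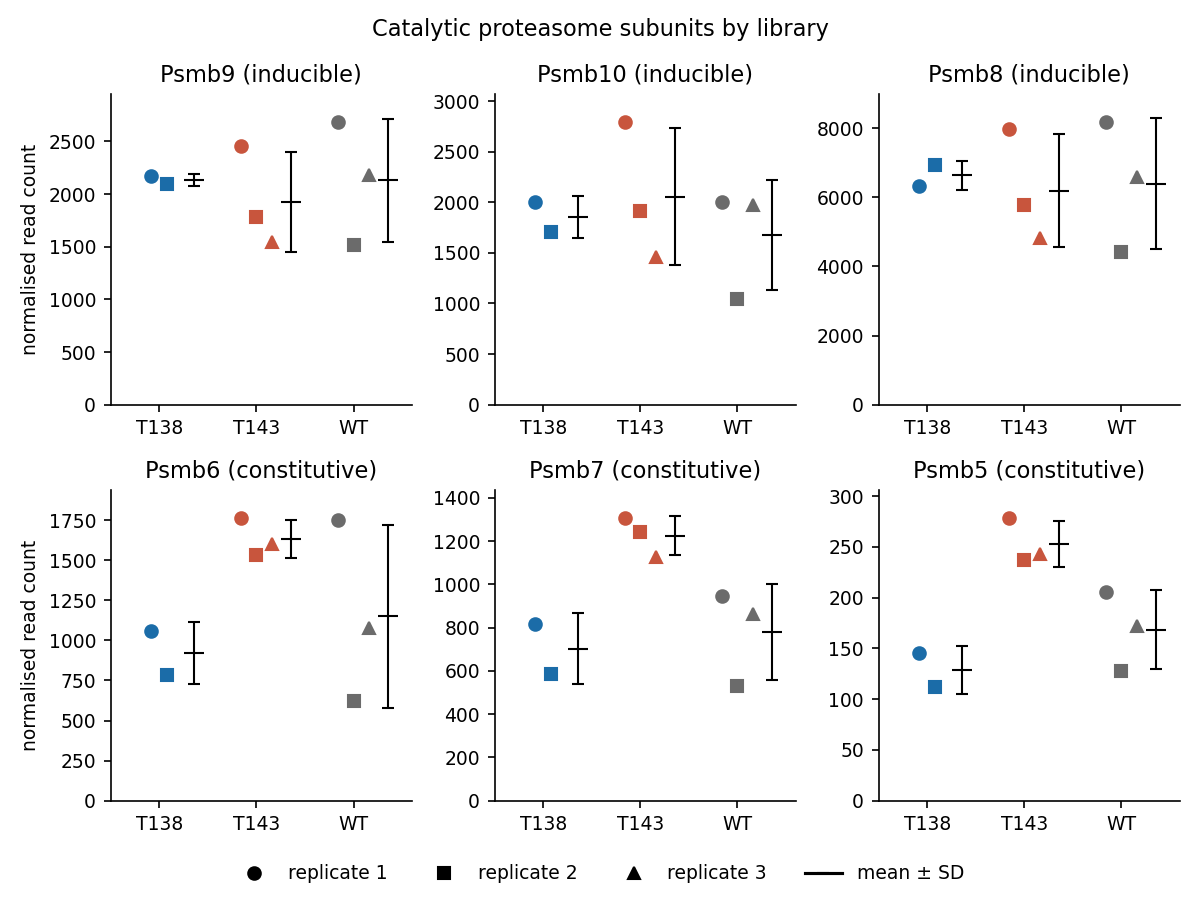
Normalised read count (linear axis from 0) of the 3 inducible subunits in the upper row and of their constitutive counterparts in the lower row, in each library of T138, T143 and WT. Symbols give the replicate number and bars the mean ± SD. The upper panels overlap between groups, and in the lower panels the T143 libraries lie above those of T138.

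Per kilobase of transcript, inducible subunits outweighed constitutive ones in every library, and by less in T143. Summed over 3 subunits each, the inducible share of the catalytic signal per kilobase was 76.2 and 81.5% in T138, 70.8, 66.0 and 61.6% in T143 and, for WT, 72.5, 77.1 and 75.8%. All 3 T143 libraries lay below the other 5. Taking log2 differences within a library, averaged over the 3 pairs, gave 1.99 and 2.37 in T138 (mean 2.18 ± 0.27 SD, n = 2), 1.54, 1.22 and 0.94 in T143 (1.23 ± 0.30, n = 3) and 1.74, 1.86 and 1.89 in WT (1.83 ± 0.08, n = 3). T143 was 0.94 below T138, a 1.92-fold lower ratio, and 0.60 below WT, 1.51-fold lower, and no T143 library overlapped another group. T138 was itself 0.35 above WT, with both T138 libraries above all 3 of WT. By the summed share, T138 and WT overlapped. Because both subunits of a pair are read in the same library, these pair differences do not depend on how libraries were scaled. No p-value is given, since the genes were chosen with results of these data known.

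By pair, Psmb9 minus Psmb6 was 0.27 and 0.66 in T138, -0.28, -0.54 and -0.81 in T143 and, for WT, -0.14, 0.53 and 0.26. Thus Psmb6 exceeded Psmb9 per kilobase in all 3 T143 libraries and in 1 WT library. Psmb10 minus Psmb7 was 1.12 and 1.36 in T138, 0.92, 0.45 and 0.19 in T143 and, for WT, 0.90, 0.81 and 1.01, where T143 replicate 1 lay within the WT range. Psmb8 minus Psmb5 was 4.58 and 5.09 in T138, 3.98, 3.74 and 3.45 in T143 and, for WT, 4.45, 4.25 and 4.39. The height of that last ratio is uncertain, because 88.4% of the Psmb5 transcript has a copy of at least 95% identity elsewhere and reads shared with the copy may not have been counted. Without this pair the T143 differences were -0.86 against T138 and -0.57 against WT.

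Leaving out any 1 library kept the pair difference between -1.13 and -0.75 against T138 and between -0.75 and -0.45 against WT. Leaving out the highest myeloid library of both lines gave -0.99 and -0.45. Within each line, the library with more myeloid signal had the lower pair difference: in T138, 0.168 and 0.0409% went with 1.99 and 2.37, and in T143, 0.615, 1.09 and 3.58% went with 1.54, 1.22 and 0.94. WT did not follow this order, as 0.00268, 0.00615 and 0.00345% went with 1.74, 1.86 and 1.89. Myeloid signal was not the only marker with such an order. Cd3e rose with the pair difference in all 3 groups. It was 11130 and 11899 in T138, 8733, 6959 and 5213 in T143 and, for WT, 7031, 10049 and 12487. Foxp3 ran opposite to the pair difference in both lines and not in WT. Cd3g and Cd4 rose with it in T143 and not in T138. These orders rest on 2 or 3 libraries each and were not tested. With the myeloid level as a covariate the difference was -0.29 against T138 and turned to 1.24 against WT. With the dendritic and MHC class II level it was -1.37 and 0.19, so the sign against WT changed with either covariate. Neither covariate overlaps between the groups, against T138 or against WT. These fits therefore cannot separate marker level from group, and no conclusion is drawn from the 4 values.

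**Figure D3:**
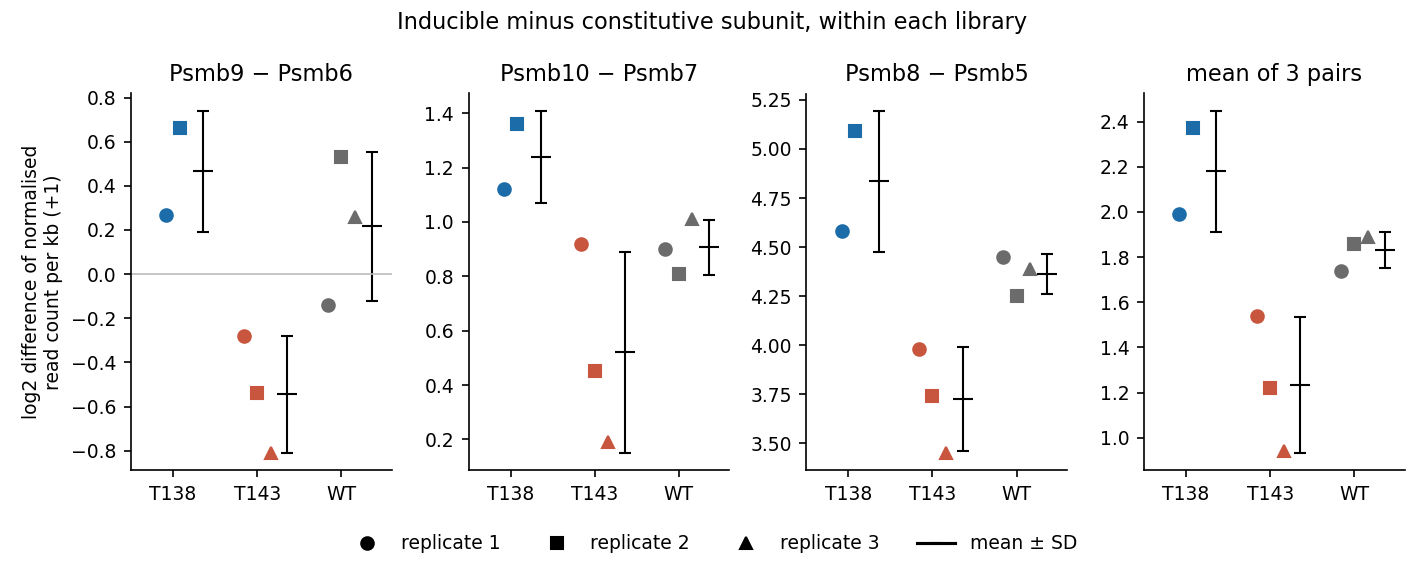
Inducible minus constitutive subunit within each library, as the log2 difference of normalised read count per kilobase (+1), for the 3 pairs and their mean, with separate vertical axes. Symbols give the replicate number and bars the mean ± SD. In the panel of the mean, the T143 libraries sit between 0.94 and 1.54, below all T138 and WT libraries.

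The rest of the core had changes of similar size to the constitutive subunits. Of the 8 alpha-ring genes, which form the gate of the barrel, 3 were called higher in T143 than in T138 and 1 higher than in WT. Among all tested genes, 10.8 and 11.7% were called higher, and the count against WT is near that background. The median log2 change was 0.68 in both comparisons, against 0.15 and 0.05 over all genes. Psma5 was 152 and 84.7 in T138, 247, 256 and 238 in T143 and, for WT, 123, 121 and 141, a change of 1.11 ± 0.35 against T138 (adjusted p = 0.0438). Psma2 was 1389 and 1267 in T138, 2732, 2170 and 2272 in T143 and, for WT, 2148, 1257 and 1865, a change of 0.84 ± 0.22 (adjusted p = 0.0205). Psma1 was 1246 and 1466 in T138, 1984, 1945 and 2063 in T143 and, for WT, 1308, 874 and 1513, a change of 0.73 ± 0.19 against WT (adjusted p = 0.0194). In these 3 genes every T143 library lay above all others. Psma4 also passed against T138 (0.56 ± 0.15, adjusted p = 0.0274), and Psma3 went the other way without being called (-0.13 ± 0.25). Copies of at least 95% identity cover 81.4% of the Psma5 transcript, 76.7% of Psma4 and 79.7% of Psma3. Against T138, the calls of Psma5, Psma2 and Psma4 were held under 8, 14 and 12 of 22 alternative settings. The Psma1 call against WT was held under 15. Psma8, the testis-type alpha subunit, was near the floor, from 0 to 30.5, and Psmb11, the catalytic subunit of thymus cortical epithelium, was at 0 in all 8 libraries, which allows a value of at most 2.07 to 5.97.

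The 4 structural beta subunits Psmb1 to Psmb4 had median changes of 0.68 against T138 and 0.72 against WT. Psmb2 was 899 and 831 in T138, 1443, 1357 and 1552 in T143 and, for WT, 1050, 736 and 1102. It was called in both comparisons, by 0.74 ± 0.19 against T138 (adjusted p = 0.0212) and 0.61 ± 0.17 against WT (adjusted p = 0.0272). Psmb1 was 1736 and 1863 in T138, 3369, 2515 and 2800 in T143 and, for WT, 2210, 1313 and 2033, and passed in the limma fit against WT (0.67 ± 0.20, adjusted p = 0.0328) and not against T138 (adjusted p = 0.0527), where DESeq2 called it. All T143 libraries lay above the others for both genes. The Psmb2 calls were held under 14 (against T138) and 12 (against WT) of 22 alternative settings. The Psmb1 call against WT was held under 9. Psmb3 and Psmb4 were not called in the limma fit, with changes of 0.61 and 0.68 against T138, and DESeq2 called Psmb4 against WT.

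Set against 9 other core genes without a near copy, of which 2 are Psmb6 and Psmb7, the inducible subunits were 1.03 and 1.08 higher per kilobase on the log2 scale in T138, 0.59, 0.28 and -0.07 in T143 and, for WT, 0.86, 0.92 and 0.85. T143 again lay below both groups, here by 0.79 and 0.61 on average. Set against 14 regulatory-particle genes without a near copy, they were 1.45 and 1.44 higher in T138, 1.31, 0.91 and 0.62 in T143 and, for WT, 1.39, 0.90 and 1.21. In that contrast T143 lay below T138, by 0.50 on average, and overlapped WT, with a mean 0.22 lower. Core genes with a near copy had lower measured levels: the 5 with one had a median of 340 normalised reads per kilobase, against 1305 for the 9 without one that are not inducible. Whether reads shared with the copies play a part in this was not tested. Of the calls, 8 of 10 against T138 and all 5 against WT were of genes without a near copy. Such genes are 39 of the 49 tested, so the share against T138 is near what the set holds.

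The regulatory particle had smaller median changes than the core. Its 6 ATPases, Psmc1 to Psmc6, form the unfolding ring, and 0 were called in any comparison by limma, edgeR or DESeq2. Their median change was 0.30 against T138 (1 of 6 at an unadjusted p under 0.05) and 0.24 against WT (0 of 6). Psmc6 had the smallest change against T138 (0.01 ± 0.14), with 1548 and 1487 in T138, 1596, 1556 and 1438 in T143 and, for WT, 1486, 1580 and 1402. Of the 11 non-ATPase subunits, 2 were called higher against T138 (median 0.40) and 1 against WT (median 0.23). The shares over all tested genes were 10.8 and 11.7% called higher, with medians of 0.15 and 0.05. The count against WT is thus near the background. Within a library, 9 core genes minus 14 regulatory-particle genes without near copies were 0.42 and 0.36 in T138, 0.72, 0.63 and 0.69 in T143 and, for WT, 0.53, -0.02 and 0.36, so that T143 lay above both other groups.

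Psmd1, a large scaffold subunit of the particle's base on chromosome 1 (86064619 to 86139295), gave the call that held best. It was 1147 and 987 in T138, 1972, 2259 and 2305 in T143 and, for WT, 1730, 1288 and 1663, with no overlap between any of the 3 groups. T143 was higher by 1.03 ± 0.17 than T138 (2.04-fold, adjusted p = 0.00264) and by 0.49 ± 0.15 than WT (1.40-fold, adjusted p = 0.0412). The call against T138 was held under 20 of 22 alternative settings and that against WT under 9. T138 against WT, at -0.54 ± 0.17, was not called (adjusted p = 0.0717).

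Psmd12, a scaffold subunit of the particle's lid, separated T138 from both other groups. Its values were 785 and 746 in T138, 1300, 1164 and 1188 in T143 and, for WT, 1219, 1087 and 1256. T138 was lower than WT by 0.63 (log2 change -0.63 ± 0.15, adjusted p = 0.0237), and T143 was higher than T138 by 0.67 ± 0.15 (adjusted p = 0.0118). The call against WT was lost when either T138 library, WT replicate 1 or WT replicate 3 was left out. T143 and WT overlapped, with a change of 0.04 ± 0.14.

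**Figure D4:**
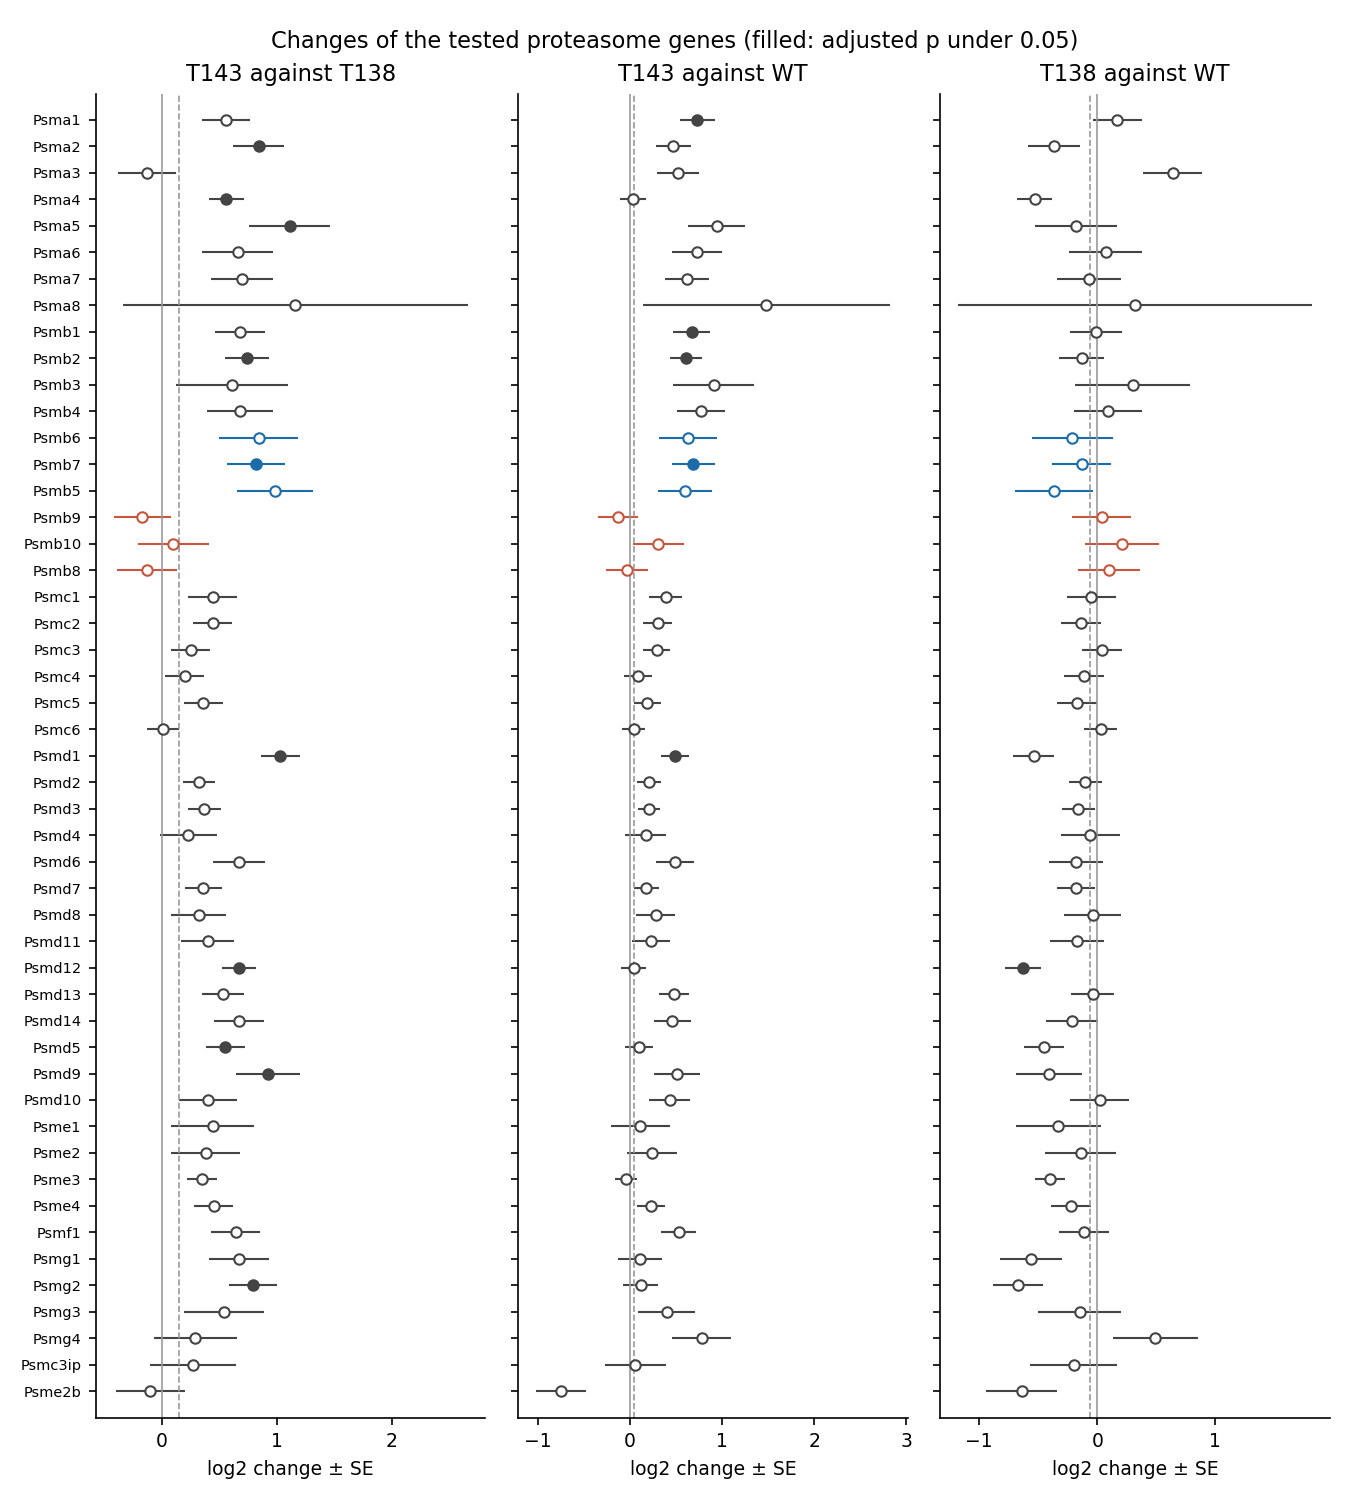
Log2 change ± SE (limma) of the 49 tested genes in T143 against T138, T143 against WT and T138 against WT, ordered by role from top to bottom, with inducible catalytic subunits in red and constitutive ones in blue. Filled points have an adjusted p under 0.05, the solid line is 0 and the dashed line is the median of all tested genes. Most points lie right of the dashed line in the first panel, while Psmb9, Psmb10 and Psmb8 lie left of it.

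Of 7 assembly chaperones, 3 were called higher in T143 than in T138, against 10.8% of all tested genes. Psmd9, Psmd5 and Psmd10 are chaperones of the regulatory particle's base, and Psmg1 to Psmg4 assemble the alpha ring. Psmd9 was 325 and 201 in T138, 452, 508 and 496 in T143 and, for WT, 431, 278 and 330, a change of 0.92 ± 0.28 against T138 (adjusted p = 0.0399), with T143 above all others. Psmd5 (0.55 ± 0.17, adjusted p = 0.0434) and Psmg2 (0.79 ± 0.21, adjusted p = 0.0232) passed as well. The calls of Psmd9, Psmd5 and Psmg2 were held under 9, 7 and 14 of 22 alternative settings. Against WT, 0 of the 7 chaperones were called by limma, edgeR or DESeq2, and 1 had an unadjusted p under 0.05. Psmg2 was 447 and 322 in T138, below all 6 other libraries (579 to 737), with -0.67 ± 0.21 against WT (adjusted p = 0.0663).

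The activators were not called in the limma fit. Psme1 and Psme2 form an interferon-inducible cap that opens the core without ATP. Psme1 was 2684 and 2174 in T138, 4024, 3322 and 2609 in T143 and, for WT, 4675, 1697 and 3497. Psme2 was 789 and 953 in T138, 1514, 1042 and 905 in T143 and, for WT, 1212, 632 and 1135, with 90.1% of its transcript matched by a near copy. Groups overlapped for both genes in every comparison. Their changes against T138 were 0.44 ± 0.36 (adjusted p = 0.425) and 0.38 ± 0.30 (adjusted p = 0.398), and neither was called in any comparison by limma, edgeR or DESeq2. The nuclear activators Psme3 and Psme4 changed by 0.35 ± 0.13 and 0.45 ± 0.17 against T138 and were not called in the limma fit, while DESeq2 called Psme3. Psmf1, an inhibitor of the core, changed by 0.64 ± 0.21 (adjusted p = 0.0510) and 0.53 ± 0.19 against WT (adjusted p = 0.0630), just above the threshold, with T143 above all other libraries, and DESeq2 called it in both comparisons.

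Of the 2 genes matched by name only, Psmc3ip stayed between 95.7 and 147. Psme2b was 313 and 385 in T138, 424, 375 and 213 in T143 and, for WT, 479, 623 and 537, so WT lay above both lines. The change of T143 against WT was -0.75 ± 0.27 (adjusted p = 0.0708), against positive changes in 45 of the 49 tested genes, and 94.9% of its transcript is shared with Psme2 at 95% identity or more.

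Genes that act with the proteasome were read from 3 lists. Of 21 proteasome-associated genes, which include ubiquitin receptors, deubiquitinases and the regulators of subunit transcription, 3 were called higher and 0 lower against T138. There 10.8% of all tested genes were higher, which the list's share is near. Against WT, 5 were higher and 1 lower, where 11.7% of all tested genes were higher, 12.1% lower and 23.8% called either way. The list's share called either way is near that background, while its higher share is above and its lower share below. For T138 against WT, 0 were called. Pomp, the maturation factor that completes core assembly, was 883 and 907 in T138, 1757, 1493 and 1692 in T143 and, for WT, 1120, 769 and 1334 (0.88 ± 0.22, adjusted p = 0.0173, and 0.65 ± 0.19, adjusted p = 0.0340). Nfe2l2, the transcription factor NRF2 of the oxidative stress response, was 767 and 819 in T138, 1552, 1975 and 1764 in T143 and, for WT, 543, 941 and 758. It was higher in T143 by 1.15 ± 0.22 and 1.27 ± 0.20 (adjusted p = 0.00592 and 0.00166). Nfe2l1, which encodes NRF1, the factor that restores subunit transcription when proteasome activity falls, changed by 0.20 ± 0.14 and 0.00 ± 0.13 and was not called.

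Genes of MHC class I antigen processing, the pathway the inducible subunits serve, were lower in T143 for most of those called. Of 14, 7 were called lower and 2 higher against T138, and 6 lower and 3 higher against WT. Of all tested genes, 10.2% were lower and 10.8% higher against T138, and 12.1% lower and 11.7% higher against WT. The list medians were -0.59 and -0.21, against 0.15 and 0.05 over all genes. Tap1, which pumps peptides into the endoplasmic reticulum and lies between Psmb9 and Psmb8, was 9785 and 8620 in T138, 6529, 5757 and 4297 in T143 and, for WT, 8766, 8525 and 9231. It was lower in T143 than in T138 (-0.75 ± 0.18, adjusted p = 0.0140) and than in WT (-0.70 ± 0.16, adjusted p = 0.0102), while neighbouring Psmb9 and Psmb8 were not called. Tap2, 3024 bases beyond Psmb8, changed by -0.68 ± 0.16 and -0.62 ± 0.14, both called.

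The MHC class I heavy chain gene H2-K1 was 28785 and 33585 in T138, 16898, 13799 and 10284 in T143 and, for WT, 25828, 21740 and 27981, lower by 1.22 and 0.90 (log2 changes -1.22 ± 0.21 and -0.90 ± 0.18). Nlrc5, the transactivator of MHC class I genes, was 11970 and 11174 in T138, 4916, 5356 and 4163 in T143 and, for WT, 13743, 15692 and 12592. Its changes were -1.27 ± 0.16 (adjusted p = 0.000584) and -1.54 ± 0.14 (adjusted p = 8.38e-05). In both genes all T143 libraries lay below all others. Erap1, a peptide-trimming aminopeptidase, went the other way in both comparisons (0.84 ± 0.17 and 0.56 ± 0.15, both called). MHC class I heavy chain genes are near-identical to one another, so their counts may be split between copies.

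Among 14 interferon regulators, 5 were called lower and 1 higher against T138, and 3 lower and 1 higher against WT. The background was 10.2% lower and 10.8% higher against T138 and, for WT, 12.1% lower, 11.7% higher and 23.8% either way. The list's share called either way against WT is near the background. Irf1, an interferon-induced factor that drives Psmb9 and Tap1, was 10121 and 9960 in T138, 7254, 5549 and 4396 in T143 and, for WT, 7913, 6758 and 7344. It was lower in T143 than in T138 (-0.84 ± 0.19, adjusted p = 0.0126) and overlapped with WT, where it was not called (-0.38 ± 0.17, adjusted p = 0.137). Ifngr1, a chain of the interferon gamma receptor, was 12924 and 14173 in T138, 3588, 3565 and 5756 in T143 and, for WT, 2973, 2621 and 3370. T138 was higher than WT by 2.19 ± 0.21 (adjusted p = 0.000277).

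**Figure D5:**
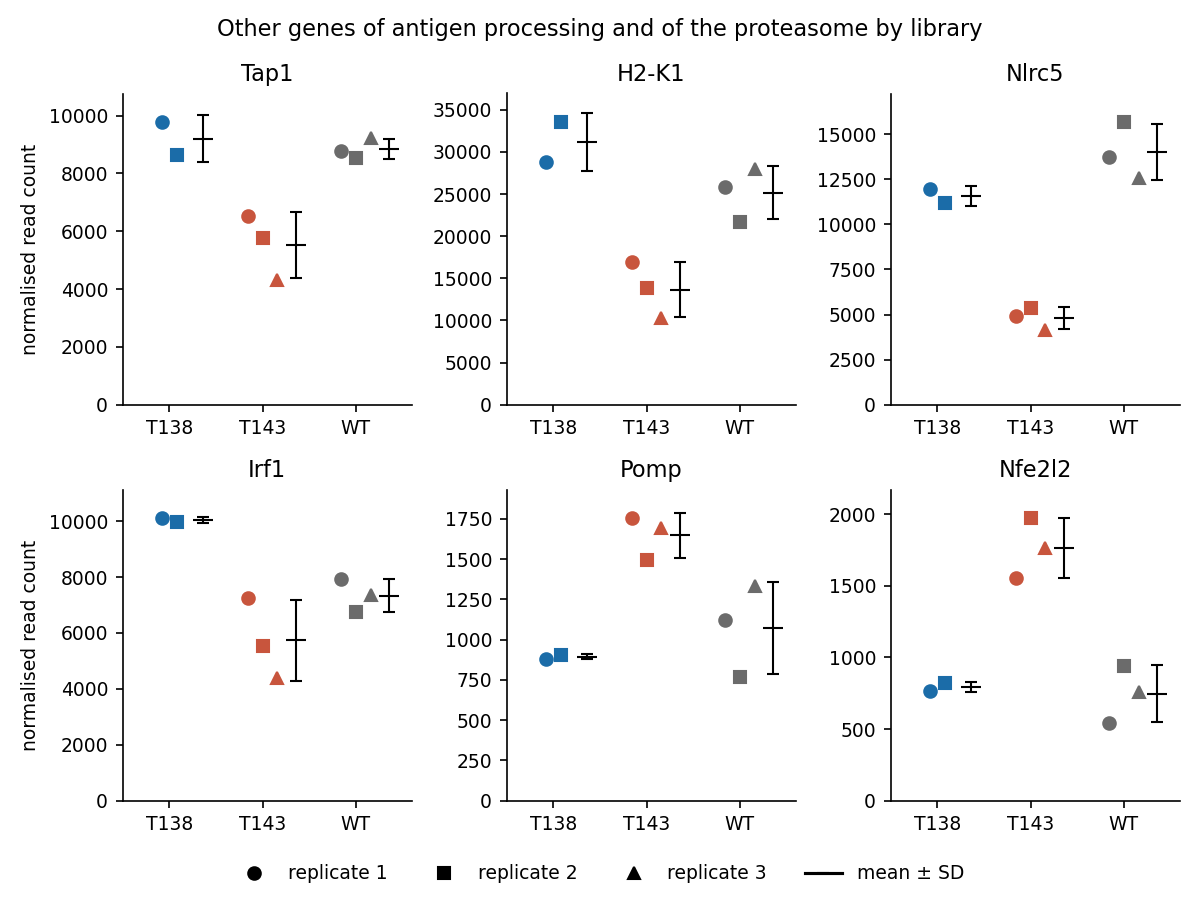
Normalised read count (linear axes from 0) of 6 genes that act with the proteasome or with antigen processing, in each library of T138, T143 and WT, with symbols for the replicate number and bars for the mean ± SD. Tap1, H2-K1 and Nlrc5 are lowest in the T143 libraries, Nfe2l2 and Pomp are highest there, and Irf1 is highest in T138.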

How the data were processed

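Values are the authors' deposited signal: gene read counts divided by a factor per library. That reading rests on the deposited values, of which 100% came out as whole reads, within 0.01, once divided by the worth of 1 read in that library. Tools listed in the submitters' processing notes are STAR 2.5.2b, HOMER 4.8, CASAVA 1.8.2 and edgeR, with build mm10. Libraries were made with a stranded poly(A) kit, per the labels' protocols. The sources used here do not say how strand and multi-mapped reads were handled. No column of another series' samples was in the table.

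Groups and replicate letters came from the titles. Nothing says that replicates are separate mice, so the p-values speak only of the spread among these samples, part of which may be technical. log2(value + 1) was fitted with limma 3.58.1 in R 4.3.3 (empirical Bayes, trend, robust) over all 8 libraries without covariates, two-sided, after a filter of 1 in at least 2 libraries. The fold changes are on that scale and understate changes of low genes. edgeR 4.0.16 and DESeq2 1.42.0 were run on recovered reads as alternatives, and the fit was checked on simulated data. Levels per kilobase used GENCODE M21 transcript lengths. A near copy is another gene whose transcripts match at 95% identity or more over most of the member's transcript. Gene positions and promoters are from RefSeq GRCm38.p6.

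Values per library are given for the 6 catalytic subunits, Psme1, Psme2 and, per comparison, up to 4 called genes in each direction with the largest change. Psmg2, Psmc6, Psme2b and the genes of the other lists were added after their values were seen. The members and lists were chosen with earlier results of these data known.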

Additional observations from a re-analysis of the deposited data

How the results depend on the processing

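Across 22 alternative settings no proteasome gene called in the limma fit changed sign, and 1 lower call appeared for T143 against WT (Psme2b, without T143 replicate 1). For T143 against T138 (10 called), median centring gave 3, DESeq2 17, a fit without trend and robust steps 3, leaving out the 2 libraries with other source names 2, leaving out the highest myeloid library of both lines 4, and either covariate 0; leaving out 1 library gave 1 to 21 (a T138 library left alone is assumed to vary like the other groups). For T143 against WT (5 called) the same settings gave 1, 10, 1, 1, 0 and 0, and 0 to 11. For T138 against WT (1 called) a filter of 10 gave 2, and fitting only the 2 groups, no trend, either covariate, or leaving out either pair of libraries gave 0, and 1 library 0 to 2. The pair difference ran from -1.13 to -0.75, -0.75 to -0.45 and 0.16 to 0.54 without 1 library. With the myeloid covariate it was -0.29 (T143 against T138), 1.53 (T138 against WT) and, reversed, 1.24 (T143 against WT); with the dendritic covariate -1.37, 1.56 and, reversed, 0.19; without the highest myeloid libraries T138 against WT was 0.54. Neither covariate overlaps between the groups, and calls over all genes fell with both, so these fits cannot separate marker level from group. The cause was not tested. Leaving out the highest myeloid libraries or genes with a near copy, and the covariates for the pair difference, were chosen after seeing the data. Same-numbered libraries did not deviate together (correlations -0.062 to 0.055). With 2 or 3 libraries per group, these correlations depend on each other and cannot exclude pairing. A replicate block gave 8, 1 and 7 calls in the order T143 against T138, T138 against WT and T143 against WT. Median centring moved the overall median for T143 against T138 from 0.152 to 0.063. At 7.83 M reads, T143 replicate 1 limits low genes most.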
